A study of Mus musculus with 8 samples.

Results

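The 35 genes described here encode the machinery that builds ribosomes, together with 6 genes of polyamine synthesis, nucleotide synthesis and translation that are classical targets of the transcription factor MYC. They were listed by symbol, with earlier results of these data known, and matched to the mouse Ensembl identifiers of the expression table, which lists 32108 genes, and all 35 were found. Their levels were read on days 2, 4, 6 and 8 of doxycycline in cultures of 4F2A mouse embryonic fibroblasts (MEFs), by bulk RNA sequencing of total RNA. In this strain doxycycline switches on a transgene that encodes Oct4, Sox2, Klf4 and c-Myc together, which drives the fibroblasts towards induced pluripotent stem cells.

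The groups D2, D4, D6 and D8 are named by the day of harvest and hold 2 libraries each. Every group was grown alike. The cells came from homozygous 4F2A embryos of 13.5 dpc that the labels call male, and they received 2 µg/mL doxycycline from day 0 onwards in KnockOut DMEM with KnockOut Serum Replacement and 1000 U/mL LIF. The titles call each library a control. No library without doxycycline and none from day 0 was analysed here, so each difference is between days of induction. The labels speak of parallel replicates and do not say whether each had its own culture, so p-values reflect only how far these libraries lie apart, which may be technical.

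The libraries held 19409936 to 20161021 counted reads, with 20784 to 22080 genes above 0. Values are CPM, counted reads scaled to the same total in each library, so they give a gene's share of the reads and not the amount of RNA in a cell. Of the 6 fibroblast markers all were tested, and their summed level was 25613 to 42916 CPM across the libraries. Nanog, which marks pluripotent cells, stood at 0.252 to 0.569 CPM. Against the label of male embryos, Xist lay at 702 to 1238 CPM across the libraries, and of Uty, Kdm5d, Ddx3y and Eif2s3y, all on the Y chromosome, none exceeded 0.333 CPM.

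Ribosome assembly begins in the nucleolus, where RNA polymerase I copies the ribosomal DNA into a long precursor RNA. Small nucleolar ribonucleoproteins (snoRNPs) modify that precursor, and large sets of assembly factors cut and fold it into the small and the large subunit. MYC is known for activating genes at each of these steps, along with genes of polyamine and nucleotide synthesis, through E-box motifs to which it binds with its partner MAX. In these fibroblasts c-Myc is itself among the induced factors.

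Myc itself rose over the time course. Its values were 404 and 383 CPM in D2, 478 and 500.2 CPM in D4, 701 and 699 CPM in D6, and 712 and 722 CPM in D8. The libraries of D2, D4 and D6 stood apart in that order without overlap, and those of D8 lay just above those of D6. On the scale of log2(CPM + 1), Myc (chromosome 15, 61985391 to 61990374, mm10) rose by 0.31 from D2 to D4 (SE 0.05, limma adjusted p = 9.2e-05). It rose by a further 0.52 from D4 to D6 (SE 0.05, limma adjusted p = 4.9e-06). The difference of 0.03 from D6 to D8 did not pass the test (limma adjusted p = 0.70). In all, the mean of D8 was 1.82 times that of D2. Transcripts of the transgene and of the native locus cannot be told apart in this value.

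**Figure D1:**
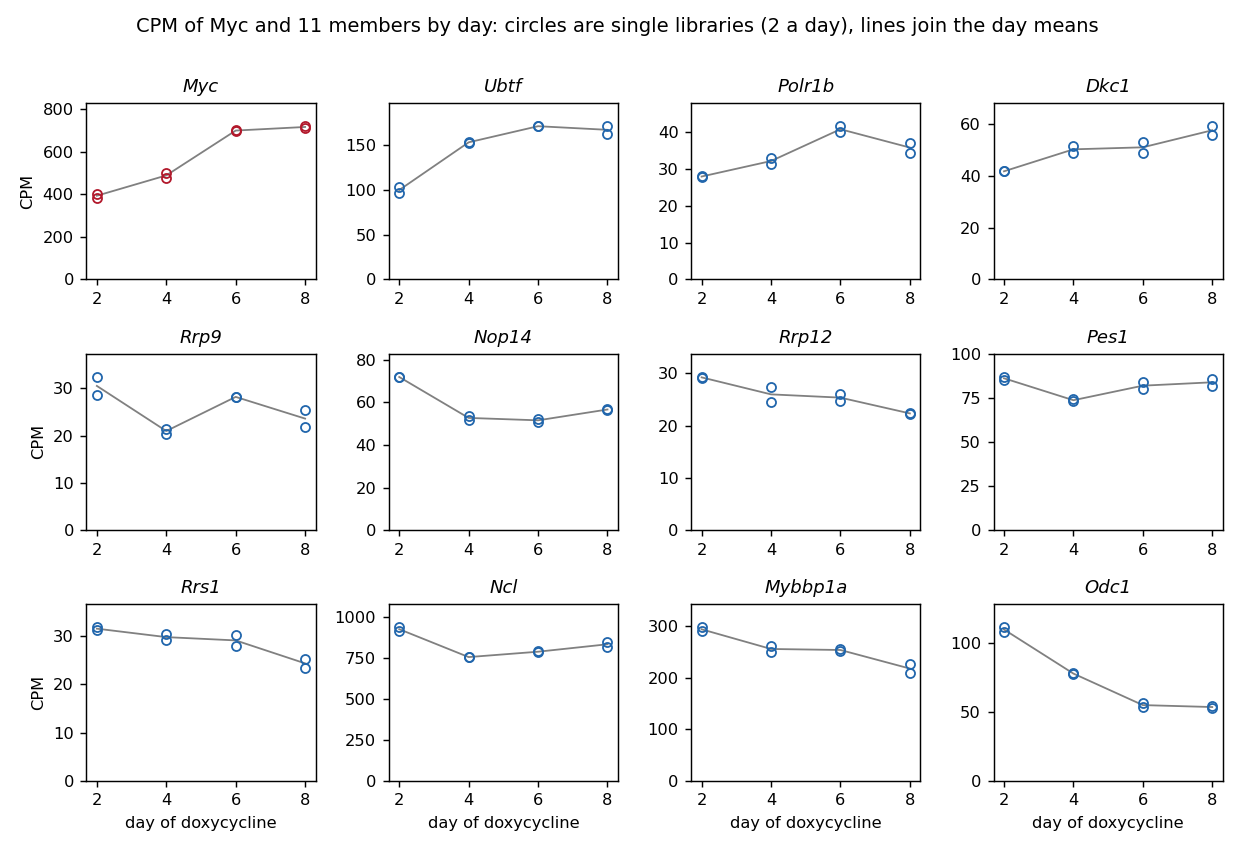
CPM (vertical axes, from 0) against day of doxycycline (horizontal axes) for Myc and 11 of the 35 genes; circles are single libraries and lines join the means of the 2 libraries of a day. Myc, Ubtf, Polr1b and Dkc1 are higher in D8 than in D2, while Odc1 goes from a mean of 109.5 in D2 to 53.4 CPM in D8.

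Most of the 35 genes moved the other way from Myc between D2 and D4. Of the 35, 21 fell, 3 rose and 11 did not pass the test (limma, adjusted p under 0.05). Among all 15358 tested genes, 21.7% were called lower and 40.9% higher in that comparison. The median change of the 35 was -0.18 on the log2 scale, beside 0.11 over all tested genes. The changes were small, since the means of D4 ranged from 0.687 times (Rrp9) to 1.53 times (Ubtf) those of D2, and Ubtf alone reached 1.5-fold. The 3 genes that rose were Ubtf, Dkc1 and Polr1b.

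The share of called genes that were higher in D4 than in D2 depended on the scaling. It was 65.3% as deposited, 52.0% with median-of-ratios scaling and 47.1% with quantile normalization. Among the 35 genes the counts were 2 higher and 29 lower with the first of these alternatives, and 1 higher and 26 lower with the second. All tested genes were 32.8% higher and 30.3% lower with the first, and 28.7% and 32.3% with the second.

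From D4 to D6 a minority of the genes moved. Of the 35, 8 rose (beside 25.2% of all tested genes called higher), 3 fell (beside 12.6% called lower) and 24 did not pass the test. Polr1a, Polr1b, Ubtf, Rrp9, Heatr1, Bop1, Pes1 and Eif5a rose, and Npm1, Odc1 and Eif4e fell. With median-of-ratios scaling 3 rose (beside 17.7% of all tested genes) and 5 fell (beside 18.7%). The count of genes that rose was 5 with only the libraries of the days compared, 4 without an intensity trend, and 3 without D6 replicate 2, 4 without D6 replicate 1, and 5 without either D2 library or without D4 replicate 2. The count of genes that fell was 1 without D6 replicate 1.

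From D6 to D8, when the change of Myc did not pass the test, 0 of the 35 genes rose (beside 4.72% of all tested genes) and 6 fell (beside 4.39%). The 6 were Polr1a, Bop1, Rrs1, Mybbp1a, Srm and Cad, with changes from -0.33 (Cad) to -0.17 (Polr1a) on the log2 scale. The count rested on every library of D2, D6 and D8. It was 0 without D6 replicate 1, without D6 replicate 2 or without D8 replicate 1, and 1 without D8 replicate 2 or without either library of D2, and it was also 0 without a trend or without the filter on low values.

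Across the later days, D8 against D4, 7 genes were higher (beside 30.7% of all tested genes) and 6 lower (beside 18.3%). Nop58, Dkc1, Wdr43, Heatr1, Pes1, Nop16 and Ncl were the 7 higher genes. Utp20, Rrp12, Rrs1, Mybbp1a, Odc1 and Cad were the 6 lower ones. The first count was 1 without D4 replicate 2 and 3 without D8 replicate 1, and the second was 3 without D8 replicate 1. After median-of-ratios scaling the counts were 0 higher (beside 23.0% of all tested genes) and 11 lower (beside 23.8%). The 7 higher genes then kept a positive change, from 0.07 (Ncl) to 0.19 (Nop16), but none of them passed the test.

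Over the whole span, D8 against D2, 22 of the 35 genes fell (beside 23.1% of all tested genes called lower), 3 rose (beside 47.3% called higher) and 10 did not pass the test. The median change was -0.20 on the log2 scale, beside 0.17 over all tested genes. The share of called genes that were higher was 67.2% as deposited, 51.4% with median-of-ratios scaling and 45.1% with quantile normalization. With the former alternative 3 of the 35 genes were higher and 30 lower, and with the latter 2 and 23. All tested genes were 35.9% higher and 33.9% lower with the former, and 31.4% and 38.3% with the latter. The ratio of day means ran from 0.487 (Odc1) to 1.67 (Ubtf), and only these 2 genes differed by 1.5-fold or more. This comparison shares the D2 libraries with D4 against D2, so the counts of these comparisons are not independent.

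The summed level of the 35 genes was 5307 and 5311 CPM in D2, 4629 and 4554 CPM in D4, 4636 and 4748 CPM in D6, and 4590 and 4614 CPM in D8. The D2 libraries were the highest, and those of the later days lay close together. Ncl, Eif5a and Npm1 weigh heavily in this sum, with D2 means of 927, 831 and 786 CPM. By role, only the RNA polymerase I genes had a higher sum in D8 than in D2. Their D2 libraries summed to 322 and 323 CPM, and their D8 libraries to 360 and 380 CPM. By day mean, 24 of the 35 genes were highest on D2, 2 on D4, 5 on D6 and 4 on D8. The lowest mean fell on D8 for 14 genes, on D4 for 12, on D6 for 5 and on D2 for 4. These day orders were not counted over all tested genes, so they are not shown to be particular to the 35. They hold for the deposited scale. Median-of-ratios scaling turned Wdr43, highest on D8 here, to a fall in D8 against D2. Of the 21 genes that fell from D2 to D4, 16 did not pass the test in D8 against D4, 3 were higher and 2 were lower. Both comparisons use the D4 libraries, so genes picked as low in D4 lean upward in D8 against D4. The split therefore does not show a recovery. Wdr12 and Gnl3 passed the test in none of the 5 comparisons.

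**Figure D2:**
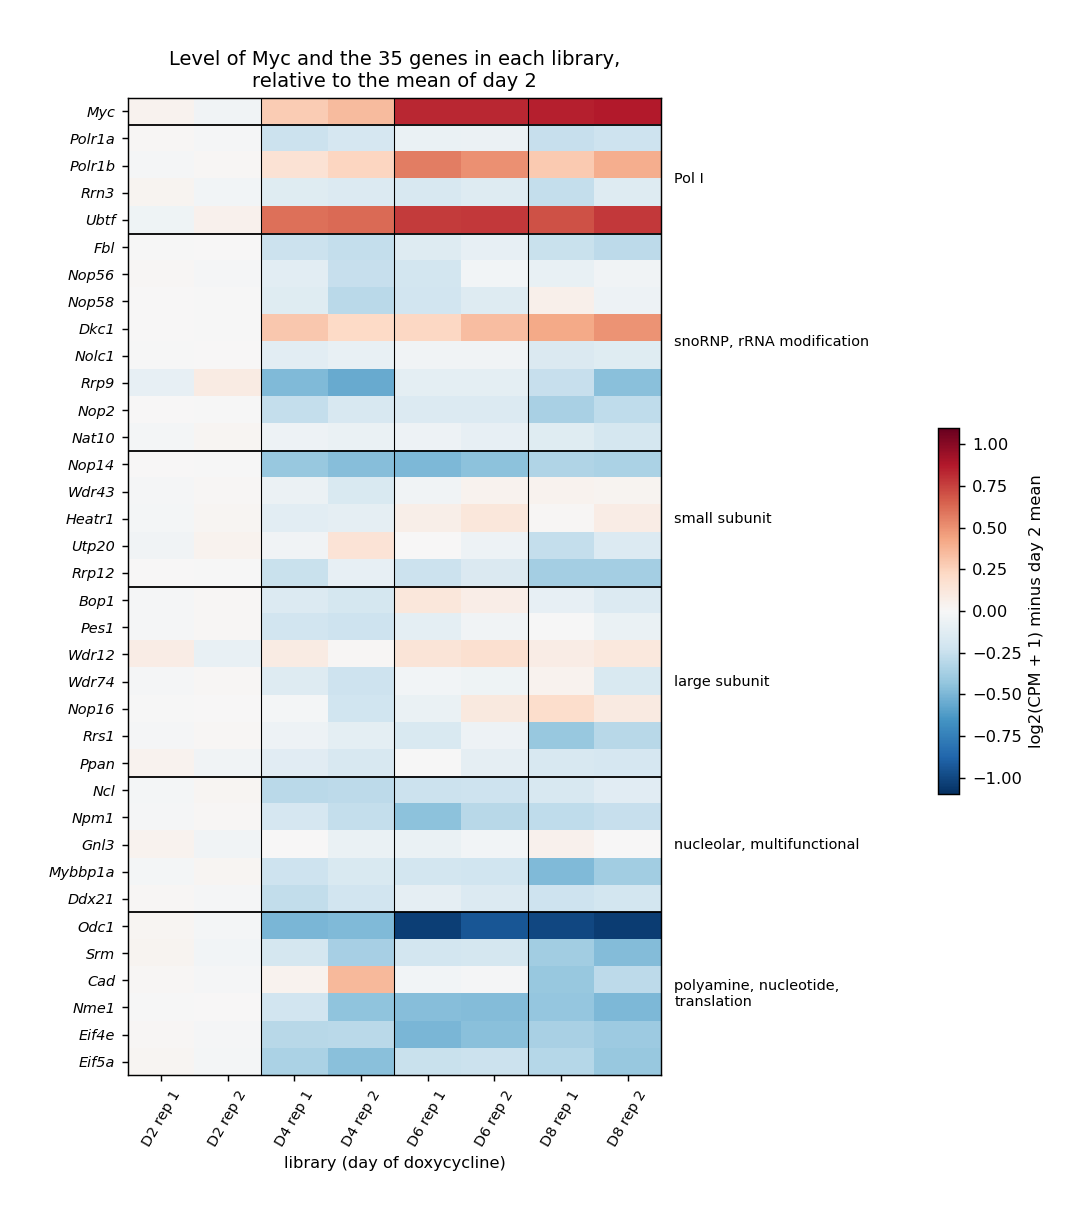
Level of Myc (top row) and of the 35 genes, grouped by role, in each of the 8 libraries (columns), as log2(CPM + 1) minus the mean of the 2 D2 libraries; red is higher and blue lower than D2. Myc, Polr1b, Ubtf and Dkc1 are red on the later days and Odc1 is the deepest blue, while most other rows are pale blue.

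Each gene's change was also set against that of Myc in the same libraries, by fitting the difference of their log2(CPM + 1) values. The comparison is signed, so a gene that fell lies below Myc however far it fell. From D2 to D4, the change of 31 of the 35 genes lay below that of Myc (beside 47.9% of 15357 other tested genes), and that of Ubtf lay above it, by 0.30 (SE 0.07, limma adjusted p = 4.7e-04). Polr1b, Dkc1 and Cad did not pass this test. Ubtf no longer passed it after quantile normalization, which left 0 genes above Myc. From D4 to D6, 34 of the 35 genes lay below Myc, beside 79.2% of all other tested genes. The exception was Rrp9, whose change differed from that of Myc by -0.11 (limma adjusted p = 0.32). From D6 to D8, 4 of the 35 genes lay below Myc, beside 4.49% of all other tested genes.

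Over the whole span, the change of 34 of the 35 genes lay below that of Myc, beside 77.6% of all other tested genes. Ubtf was the exception. Its change was 0.13 below that of Myc (SE 0.07, limma adjusted p = 0.084), which does not show that both changed alike. Odc1 stood farthest from Myc, with a difference of -1.89 (SE 0.07, limma adjusted p = 1.1e-17). The median difference from Myc was -1.07 over the 35 genes and -0.70 over all other tested genes.

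**Figure D3:**
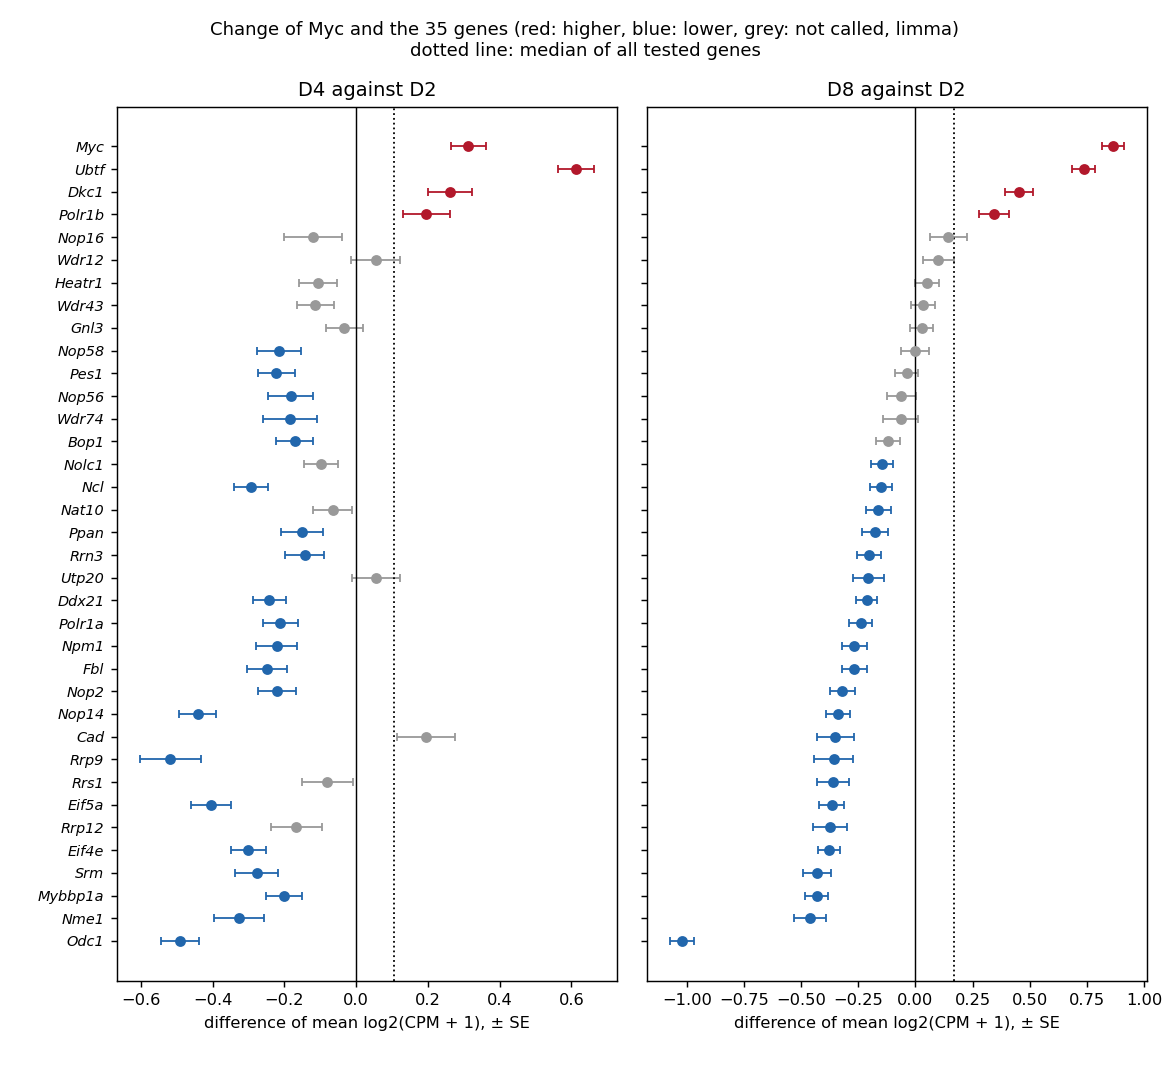
Change of Myc and of the 35 genes in D4 against D2 (left) and D8 against D2 (right), as difference of mean log2(CPM + 1) ± SE from the fit over all 8 libraries; red is called higher, blue called lower, grey not called, and the dotted line is the median of all tested genes. Only Myc, Ubtf, Dkc1 and Polr1b are red in both panels, and 21 and 22 genes are blue.

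The stretches before the transcription starts were searched for the E-box letters CACGTG, which read the same on both strands. The RefSeq promoter table of build GRCm38.p6 held 29 of the 35 genes. Npm1, Fbl, Srm, Bop1, Rrs1 and Rrp12 had no entry there. Within the 250 bases before a start, the letters occurred in 5 of the 29 genes (17.2%), namely Eif4e, Nop2, Eif5a, Nme1 and Rrn3. They occurred in 1854 of all 27025 genes of the table (6.86%) and in 1047 of the 10963 genes that were also tested here (9.55%). Counted by start and not by gene, 8 of the 43 starts of these genes (18.6%) had a match, beside 6.02% of all starts. The latter share includes genes not tested here. A gene with several starts has more chances of a match, and the same E-box of Eif5a was counted in overlapping windows. The matching windows of Eif4e and of 1 Nme1 start hold 250 and 249 annotated exon bases, and the other Eif4e start had no match. A match is a description of the sequence and not evidence of binding. The windows of 3 of these genes are shown because they hold a match and no annotated exon base. The genes encode an rRNA methyltransferase, a translation factor and a polymerase I factor. Each is written 5′ to 3′ on the strand of the gene, with the E-box in capitals.
Nop2: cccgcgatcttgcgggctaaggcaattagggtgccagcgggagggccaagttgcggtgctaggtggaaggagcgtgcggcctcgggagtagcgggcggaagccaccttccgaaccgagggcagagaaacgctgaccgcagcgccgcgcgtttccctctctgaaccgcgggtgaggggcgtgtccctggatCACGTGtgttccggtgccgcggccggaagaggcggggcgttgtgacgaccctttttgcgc
Eif5a: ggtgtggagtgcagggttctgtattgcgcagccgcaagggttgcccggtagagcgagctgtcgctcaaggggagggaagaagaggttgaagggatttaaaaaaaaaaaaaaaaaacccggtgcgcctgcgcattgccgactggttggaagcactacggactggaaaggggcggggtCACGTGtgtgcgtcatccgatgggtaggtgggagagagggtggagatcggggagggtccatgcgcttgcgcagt
Rrn3: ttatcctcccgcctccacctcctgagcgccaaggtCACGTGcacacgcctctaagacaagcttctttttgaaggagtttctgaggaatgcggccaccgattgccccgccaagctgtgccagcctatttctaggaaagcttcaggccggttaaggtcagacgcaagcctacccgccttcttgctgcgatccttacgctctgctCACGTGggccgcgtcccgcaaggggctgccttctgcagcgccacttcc
The window of Nop2 is chr6:125131633-125131882 on the plus strand, with the E-box 60 bases before the start. Eif5a has 6 starts in the table, of which 3 have no match, and the window shown is chr11:69921387-69921636 on the minus strand, with the E-box 74 bases before its start. That of Rrn3 is chr16:13780449-13780698 on the plus strand, with E-boxes 215 and 48 bases before the start.

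The 4 genes of RNA polymerase I transcription split. Of these, 2 rose and 2 fell in D4 against D2, and likewise in D8 against D2. Among all tested genes, 40.9% rose and 21.7% fell in the former comparison, and 47.3% and 23.1% in the latter. Ubtf encodes UBF, which binds ribosomal DNA and keeps it open for the polymerase. Its values were 96.3 and 103 CPM in D2, 152 and 154 CPM in D4, 171 and 171 CPM in D6, and 163 and 171 CPM in D8. Every later library lay above both D2 libraries. Ubtf (chromosome 11, 102304560 to 102319742, minus strand, mm10) rose by 0.61 from D2 to D4 (SE 0.05, limma adjusted p = 2.6e-07) and by 0.74 from D2 to D8 (SE 0.05, limma adjusted p = 2.3e-08). It was called higher in both comparisons under either scaling alternative, with 0.50 and 0.59 in D4 against D2, and 0.55 and 0.68 in D8 against D2.

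Polr1b encodes the second largest subunit of the polymerase. Its values were 27.7 and 28.0 CPM in D2, 31.2 and 32.9 CPM in D4, 41.6 and 39.8 CPM in D6, and 34.3 and 37.1 CPM in D8. The libraries of D6 were the highest. Its rise of 0.20 from D2 to D4 passed the test (SE 0.07, limma adjusted p = 0.019), but not after median-of-ratios scaling or quantile normalization, nor without D2 replicate 1, D2 replicate 2 or D4 replicate 2. The rise of 0.35 in D8 against D2 (SE 0.07, limma adjusted p = 3.5e-04) became 0.12 after quantile normalization (limma adjusted p = 0.12).

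Polr1a, the largest subunit, stood at 88.2 ± 1.5 CPM in D2, 76.0 ± 2.08 CPM in D4, 84.1 ± 0.354 CPM in D6 and 74.6 ± 0.733 CPM in D8 (SD, n = 2). It fell by 0.21 from D2 to D4 (limma adjusted p = 0.0021) and by 0.24 over the whole span (limma adjusted p = 6.8e-04). Rrn3 encodes TIF-IA, which makes the polymerase competent to start. It went from 106 ± 3.4 in D2 to 92.5 ± 5.19 CPM in D8 (SD, n = 2), a fall of 0.20 (limma adjusted p = 0.0041). Without D2 replicate 1 or without D8 replicate 1 the adjusted p of Rrn3 in D8 against D2 was 0.055 and 0.053.

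Among the 8 genes of snoRNPs and rRNA modification, 5 fell and 1 rose in D4 against D2, and the same counts held in D8 against D2. The 62.5% called lower stood beside 21.7% and 23.1% of all tested genes. The gene that rose was Dkc1. It encodes dyskerin, the pseudouridine synthase of box H/ACA snoRNPs, which is also part of telomerase. Dkc1 (chromosome X, 75095854 to 75109777, mm10) had 41.9 and 41.9 CPM in D2, 51.8 and 49.0 CPM in D4, 49.1 and 53.2 CPM in D6, and 56.1 and 59.4 CPM in D8. No later library overlapped with D2. It rose by 0.26 from D2 to D4 (SE 0.06, limma adjusted p = 0.0023), or 0.12 after quantile normalization (limma adjusted p = 0.12). Its rise over the whole span was 0.45 (SE 0.06, limma adjusted p = 1.8e-05), or 0.27 and 0.28 with the scaling alternatives, both called.

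Rrp9, a protein of the U3 snoRNP, moved back and forth. Its values were 28.5 and 32.5 CPM in D2, 21.5 and 20.4 CPM in D4, 28.2 and 28.2 CPM in D6, and 25.3 and 21.9 CPM in D8. Both D4 libraries lay below all others. It fell by 0.52 from D2 to D4 (SE 0.08, limma adjusted p = 1.4e-04) and rose by 0.41 from D4 to D6 (SE 0.08, limma adjusted p = 0.0022).

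The core proteins of box C/D snoRNPs fell in D4. Fbl encodes fibrillarin, the methyltransferase of these particles, and went from 53.3 ± 0.181 to 44.7 ± 0.462 CPM (SD, n = 2), a fall of 0.25 (limma adjusted p = 0.0015). Nop56 and Nop58, its partners, fell by 0.18 and 0.21 (limma adjusted p = 0.023 and 0.0080). In D8 against D2 Fbl was still lower, by 0.27, whereas Nop56 and Nop58 were not called, at -0.06 and -0.00. After median-of-ratios scaling both were called lower in that comparison, at -0.24 and -0.19. Nop2, which methylates cytosine in 28S rRNA and whose promoter window is printed above, fell from 75.0 ± 0.614 in D2 to 59.9 ± 2.24 CPM in D8 (SD, n = 2; limma adjusted p = 1.4e-04). Nat10, the acetyltransferase of rRNA, and Nolc1, a chaperone of snoRNPs, fell by 0.16 and 0.15 in D8 against D2 and were not called in D4 against D2. The D4 call of Nop56 was lost without either D2 library or D4 replicate 2, that of Nop58 without D4 replicate 2, and the D8 call of Nat10 without D2 replicate 2 or D8 replicate 2, and that of Nolc1 without either D2 library or D8 replicate 1.

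Of the 5 genes of small subunit assembly, 1 fell and 0 rose in D4 against D2, while 3 fell in D8 against D2. The shares called lower were 20% and 60%, beside 21.7% and 23.1% of all tested genes, so the first is no excess. Nop14 is a part of the processome that forms on the precursor RNA. It had 72.1 and 71.8 CPM in D2, 53.6 and 51.9 CPM in D4, 50.9 and 52.2 CPM in D6, and 57.1 and 56.3 CPM in D8. The later libraries all lay below D2 by a wide margin compared with the gap between replicates. Nop14 (chromosome 5, 34638536 to 34660148, minus strand, mm10) fell by 0.44 from D2 to D4 (SE 0.05, limma adjusted p = 7.5e-06) and by 0.34 over the whole span (limma adjusted p = 5.9e-05).

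Rrp12, an export and maturation factor of the small subunit, had 29.4 and 29.1 CPM in D2, 24.6 and 27.4 CPM in D4, 24.7 and 26.0 CPM in D6, and 22.3 and 22.3 CPM in D8. The D8 libraries were the lowest. Its fall from D2 to D8 was 0.37 (SE 0.07, limma adjusted p = 4.3e-04). Utp20, a large scaffold protein of the processome, went from 96.4 ± 4.01 to 83.4 ± 4.43 CPM between D2 and D8 (SD, n = 2; limma adjusted p = 0.014), or 0.12 without D2 replicate 2 or without D8 replicate 1. Wdr43 and Heatr1, which also act in polymerase I transcription, had changes of 0.03 and 0.05 in D8 against D2 (limma adjusted p = 0.58 and 0.42). After median-of-ratios scaling these were -0.15 and -0.13, and both were called lower.

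Of the 7 genes of large subunit assembly, 4 fell and 0 rose in D4 against D2, and 2 fell in D8 against D2. The shares called lower were 57.1% and 28.6%. The second was near the share of all tested genes, which was 21.7% in D4 and 23.1% in D8 against D2. Pes1, Bop1 and Wdr12 form the PeBoW complex, which processes the large subunit precursor. Pes1 had 85.4 and 87.3 CPM in D2, 74.3 and 73.4 CPM in D4, 80.2 and 84.1 CPM in D6, and 86.1 and 82.0 CPM in D8. Both D4 libraries were below all others, and the D8 libraries overlapped with D2. The fall of Pes1 from D2 to D4 was 0.22 (SE 0.05, limma adjusted p = 0.0020), and its difference over the whole span was -0.04 (limma adjusted p = 0.52).

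After median-of-ratios scaling the latter was -0.22, and after quantile normalization -0.14, and both were called. Its partner Bop1 went from 70.9 ± 0.944 CPM in D2 to 62.8 ± 1.45 in D4, 75.9 ± 2.1 in D6 and 65.2 ± 1.76 in D8 (SD, n = 2). The rise of Bop1 from D4 to D6 was 0.27 (limma adjusted p = 0.0014). Wdr12 lay between 30.5 and 36.7 CPM in the 8 libraries.

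Rrs1, which brings the 5S particle into the large subunit, was lowest in D8. It had 31.3 and 31.8 CPM in D2, 30.3 and 29.2 CPM in D4, 27.9 and 30.3 CPM in D6, and 23.4 and 25.3 CPM in D8. The D8 libraries did not overlap with any other. Rrs1 fell by 0.36 from D2 to D8 (SE 0.07, limma adjusted p = 4.4e-04). Ppan fell by 0.18 over the whole span (limma adjusted p = 0.015), or 0.12 without D2 replicate 1 and 0.054 without D8 replicate 2. Wdr74 and Nop16, further assembly factors, were not called in D8 against D2, at -0.06 and 0.14.

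Of the 5 multifunctional nucleolar proteins, 4 fell and 0 rose in both D4 and D8 against D2. Among all tested genes 21.7% and 23.1% fell. Ncl encodes nucleolin, an abundant nucleolar protein that binds rRNA and chromatin. It had 915 and 938 CPM in D2, 754 and 758 CPM in D4, 786 and 792 CPM in D6, and 820.1 and 849 CPM in D8. The D4 libraries were the lowest, and those of D8 remained below D2. Ncl (chromosome 1, 86344719 to 86359400, minus strand, mm10) fell by 0.29 from D2 to D4 (SE 0.05, limma adjusted p = 1.4e-04) and by 0.15 from D2 to D8 (SE 0.05, limma adjusted p = 0.012). The latter value turned to 0.10 after quantile normalization (limma adjusted p = 0.053). Without D2 replicate 1, D2 replicate 2 or D8 replicate 1 its adjusted p was 0.053, 0.12 and 0.064.

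Mybbp1a, a nucleolar repressor that also binds p53, was lowest in D8. It had 290.5 and 298 CPM in D2, 251 and 261 CPM in D4, 255 and 253 CPM in D6, and 210.1 and 226 CPM in D8. The D8 libraries lay below all others, with a change of -0.43 from D2 (SE 0.05, limma adjusted p = 4.0e-06). Npm1, nucleophosmin, went from 786 ± 8.62 CPM in D2 to 605 ± 44.8 in D6 and 654 ± 10.6 in D8 (SD, n = 2). Its fall of 0.27 from D2 to D8 (limma adjusted p = 8.9e-04) was 0.11 after quantile normalization and no longer called. Ddx21, an RNA helicase that links polymerase I and II transcription, fell by 0.24 from D2 to D4 (limma adjusted p = 5.0e-04). Gnl3, nucleostemin, lay between 95.3 and 104 CPM in all libraries.

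The 6 MYC targets of polyamine synthesis, nucleotide synthesis and translation all fell in D8 against D2, and 5 of them in D4 against D2. Among all tested genes 23.1% and 21.7% fell in these comparisons. Odc1 encodes ornithine decarboxylase, the rate-limiting enzyme of polyamine synthesis. Its values were 111 and 108 CPM in D2, 77.1 and 78.1 CPM in D4, 53.1 and 56.5 CPM in D6, and 54.1 and 52.7 CPM in D8. D2, D4 and the later days formed separate levels. Odc1 (chromosome 12, 17544794 to 17551505, mm10) fell by 0.49 from D2 to D4 (SE 0.05, limma adjusted p = 3.2e-06) and by 0.50 from D4 to D6 (SE 0.05, limma adjusted p = 1.3e-05). Its change of -1.02 over the whole span (SE 0.05, limma adjusted p = 1.3e-09) was the largest among the 35 genes, under the deposited scale and both scaling alternatives.

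Srm, spermidine synthase, the next enzyme of the pathway, went from 109 ± 3.02 in D2 to 80.8 ± 3.83 CPM in D8 (SD, n = 2; limma adjusted p = 2.9e-05). Cad, the enzyme that opens pyrimidine synthesis, had 121 and 118 CPM in D2, 122 and 153 CPM in D4, 117 and 118 CPM in D6, and 89.3 and 97.6 CPM in D8. D4 replicate 2 stood above every other library, and both D8 libraries stood below them. The change of Cad from D2 to D8 was -0.35 (SE 0.08, limma adjusted p = 0.0018).

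Both translation factors fell from D2 to D4. Eif4e, which binds the mRNA cap, went from 103 ± 1.16 CPM in D2 to 83.2 ± 0.211 in D4 and 78.8 ± 1.44 in D8 (SD, n = 2; limma adjusted p = 1.2e-05 for D8 against D2). Eif5a, the factor that carries hypusine made from spermidine, went from 831 ± 20.5 CPM in D2 to 628 ± 34 in D4, 702 ± 4.7 in D6 and 644 ± 31.2 in D8 (SD, n = 2; limma adjusted p = 4.8e-05 for D8 against D2). Its rise from D4 to D6 was 0.16 (limma adjusted p = 0.033). Nme1, a nucleoside diphosphate kinase, fell by 0.46 over the whole span (limma adjusted p = 5.7e-05). Eif5a and Npm1 have many processed pseudogenes, and Nme1 is a close copy of Nme2, so their reads may have been divided among genes.

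Per kilobase of exon, the levels of the 35 genes spanned a wide range on D2. Eif5a (349 CPM per kb), Npm1 (295 CPM per kb) and Ncl (91.0 CPM per kb) led, and Polr1b (4.80 CPM per kb) and Wdr12 (2.71 CPM per kb) were last. Myc stood at 145 CPM per kb on D2 and 264 CPM per kb on D8, next to Eif5a at 271 CPM per kb and Npm1 at 245 CPM per kb on that day. Lengths are the union of GENCODE exons, which are longer than most single transcripts of these genes.

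Other genes of ribosome assembly were called in both directions. Among all tested genes, 40.9% rose and 21.7% fell in D4 against D2, and 47.3% and 23.1% in D8 against D2. Of 12 other genes of polymerase I transcription, 4 rose and 4 fell in D4 against D2, and 4 rose and 3 fell in D8 against D2. Ttf1, which terminates polymerase I, rose, with 15.0 ± 1.14 CPM in D2 and 27.3 ± 0.845 CPM in D8 (SD, n = 2; limma adjusted p = 1.2e-06). Znrd1, a small polymerase I subunit, rose from 11.3 ± 0.103 to 17.5 ± 1.59 CPM (SD, n = 2; limma adjusted p = 5.5e-05). Of 15 other snoRNP genes, 1 rose and 2 fell in D4 against D2, and 3 rose and 2 fell in D8 against D2. Between D2 and D8 Tgs1 rose from 28.5 ± 1.91 to 41.1 ± 1.64 CPM (SD, n = 2, limma adjusted p = 1.3e-05). Over the same days Ruvbl2, an ATPase of snoRNP assembly, fell from 57.2 ± 0.652 to 41.2 ± 0.228 CPM (SD, n = 2, limma adjusted p = 7.8e-06).

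Of 45 other genes of the small subunit, 6 rose and 12 fell in D4 against D2, and 11 rose and 11 fell in D8 against D2. Utp6 rose from 53.4 ± 1.42 to 75.9 ± 0.144 CPM between D2 and D8, and Noc4l fell from 37.1 ± 0.477 to 24.7 ± 2 CPM (SD, n = 2; limma adjusted p = 2.3e-06 and 6.1e-06). Of 48 other genes of the large subunit, 7 rose and 15 fell in D4 against D2, and 10 rose and 13 fell in D8 against D2. Surf6 rose from 20.6 ± 0.652 to 38.0 ± 0.149 CPM between D2 and D8, and Mak16 fell from 73.8 ± 2.23 to 52.8 ± 0.171 CPM (SD, n = 2; limma adjusted p = 2.0e-07 and 1.0e-05). In D8 against D2, 25% of other polymerase I, 13.3% of the snoRNP, 24.4% of the small and 27.1% of the large subunit genes fell. These shares were nearer to the 23.1% of all tested genes than to the 62.9% of the 35 genes. In the same order of lists, 33.3%, 20%, 24.4% and 20.8% rose, beside 47.3% of all tested genes and 8.57% of the 35 genes. On that side only the polymerase I share was nearer to that of all tested genes than to that of the 35. The scaling mattered for both subunit lists. In D8 against D2 median-of-ratios scaling gave 6 higher and 21 lower for the small subunit and 4 and 27 for the large subunit. It called 35.9% of all tested genes higher and 33.9% lower.

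**Figure D4:**
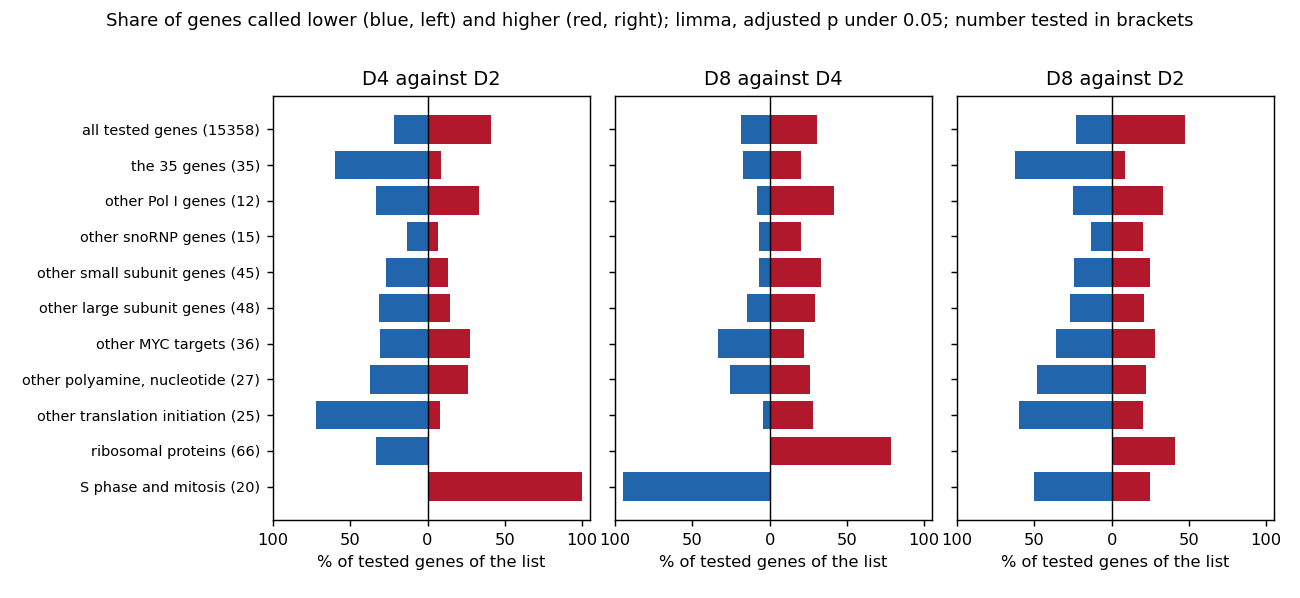
Percent of tested genes called lower (blue, to the left) and higher (red, to the right) in 3 comparisons, for all tested genes, the 35 genes and other gene lists, with the number tested in brackets. The 35 genes lean to the left in D4 and D8 against D2, where 21 and 22 of them were called lower, while S phase and mitosis genes lean right in D4 against D2 and left in D8 against D4.

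Genes of translation initiation fell more often than they rose. Of the 25 genes, 18 fell and 2 rose in D4 against D2, and 15 fell and 5 rose in D8 against D2. The shares called lower, 72% and 60%, stood beside 21.7% and 23.1% of all tested genes. Eif4ebp1, the inhibitor of Eif4e, fell from 224 ± 4.13 to 104 ± 12.9 CPM between D2 and D8 (SD, n = 2; limma adjusted p = 1.8e-07). Eif2s2 fell from 273 ± 2.81 to 166 ± 9.02 CPM (SD, n = 2; limma adjusted p = 1.5e-07), and Eif4a2 rose from 248 ± 3.41 to 383 ± 11.9 CPM (SD, n = 2; limma adjusted p = 3.6e-07).

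Of 27 other polyamine and nucleotide synthesis genes, 6 rose (beside 47.3% of all tested genes) and 13 fell (beside 23.1%) in D8 against D2. Sat1, which breaks polyamines down, fell from 139 ± 3.16 to 67.9 ± 5.18 CPM (SD, n = 2; limma adjusted p = 6.2e-08). Paics, an enzyme of purine synthesis, rose from 199 ± 0.998 to 417 ± 20.3 CPM (SD, n = 2; limma adjusted p = 1.6e-08). Of 36 MYC targets outside ribosome assembly, 10 rose (beside 47.3% of all tested genes) and 13 fell (beside 23.1%) in D8 against D2. For Ldha, which encodes lactate dehydrogenase, the level dropped from 955 ± 15 to 251 ± 22.4 CPM, and for Hk2, a hexokinase, from 126 ± 0.935 to 33.5 ± 0.12 CPM (SD, n = 2; limma adjusted p = 3.9e-11 and 5.6e-12). Tert, the catalytic part of telomerase, rose from 3.58 ± 0.622 to 10.4 ± 0.727 CPM (SD, n = 2; limma adjusted p = 2.1e-07).

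Among the 12 tested genes of the MYC network, Myc included, 6 rose and 3 fell in D8 against D2. These shares, 50% and 25%, were near the 47.3% and 23.1% of all tested genes. Mxd4, a MAX partner that represses MYC targets, rose from 125 ± 0.0767 to 279 ± 17.7 CPM between D2 and D8 (SD, n = 2; limma adjusted p = 1.3e-09). Mxi1, of the same family, rose from 36.8 ± 0.702 to 56.9 ± 2.09 CPM, and Mga from 67.2 ± 1 to 109 ± 8.99 CPM (SD, n = 2; limma adjusted p = 6.6e-07 and 1.2e-06). Mnt, another repressor partner, fell from 73.9 ± 1.09 to 55.3 ± 3.86 CPM (SD, n = 2; limma adjusted p = 1.8e-04). Max itself differed by -0.08 (limma adjusted p = 0.14). Mycl fell from 4.65 ± 0.33 to 0.206 ± 0.000735 CPM, close to the 0.149 to 0.155 CPM that 3 reads make in these libraries.

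Of 17 genes listed as repressed by MYC or linked to p53, Cdkn2a and Trp53 included, 4 rose and 9 fell in D8 against D2. Those shares, 23.5% and 52.9%, stood beside 47.3% and 23.1% of all tested genes. Cdkn1c, a cell cycle inhibitor, rose from 3.06 ± 0.0263 to 37.6 ± 11.4 CPM, and Sesn1, a p53 target, from 10.9 ± 1.19 to 41.0 ± 0.765 CPM (SD, n = 2; limma adjusted p = 7.1e-10 and 1.8e-10). Gadd45b, a stress gene, fell from 69.6 ± 2.68 to 10.5 ± 0.362 CPM (SD, n = 2; limma adjusted p = 6.2e-12). Ndrg2 and Cdkn2b, which MYC is known to repress, fell too. The D2 and D8 levels of Ndrg2 were 8.52 ± 0.552 and 2.77 ± 0.135 CPM, and those of Cdkn2b were 106 ± 0.448 and 41.9 ± 2.55 CPM (SD, n = 2). The split of this list was 3 higher and 13 lower after median-of-ratios scaling, and 3 and 7 after quantile normalization. On those scales 33.9% and 38.3% of all tested genes were lower.

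Genes of cell division and of the ribosome itself also moved. All 20 genes of S phase and mitosis rose in D4 against D2, or 16 and 14 with the scaling alternatives. In D8 against D4, 19 of these genes fell on every scale. Among all tested genes as deposited, 40.9% rose and 21.7% fell in D4 against D2, and 30.7% rose and 18.3% fell in D8 against D4. With median-of-ratios scaling 32.8% rose and 30.3% fell in the former comparison, and 23.0% and 23.8% in the latter. With quantile normalization these shares were 28.7% and 32.3% in the former, and 22.3% and 25.7% in the latter. Of 66 tested cytosolic ribosomal protein genes, 22 fell and 0 rose in D4 against D2, with a median change of -0.14, or 60 and 3 fell with the scaling alternatives. In D8 against D4, 52 of them rose and 0 fell, or 39 and 47 rose with the scaling alternatives. In D8 against D2 the direction of the ribosomal protein genes depended on the scaling. Of them, 27 were higher and 0 lower as deposited, 5 and 17 after median-of-ratios scaling, and 40 and 2 after quantile normalization. All tested genes were 47.3% higher and 23.1% lower as deposited. They were 35.9% and 33.9% after median-of-ratios scaling, and 31.4% and 38.3% after quantile normalization. Whether the cell division genes have a part in the changes of the 35 genes was not tested.

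Markers of other cell types moved over the same days. The 6 epithelial markers summed to 34.0 and 35.6 CPM in the D2 libraries and to 186 and 202 CPM in those of D8, mostly from Krt8, with 3 of the 6 tested and 2 called higher. Krt18 and Epcam stayed below 1 CPM. The 6 fibroblast markers summed to 25621 and 25613 CPM in D2, to 39439 and 42916 CPM in D4 and to 28125 and 31176 CPM in D8. Most of these sums came from the collagen genes Col1a1, Col1a2 and Col3a1. Of these markers 4 rose and 2, Vim and Thy1, fell in D4 against D2, where 21 of the 35 genes fell. In D8 against D2, 1 of the markers rose and 3 fell. Among all tested genes, 40.9% rose and 21.7% fell in the former comparison, and 47.3% and 23.1% in the latter. From D2 to D4, the muscle gene Acta1 fell from 58.1 ± 2.68 to 10.6 ± 0.286 CPM, while Myod1 was at 0 in all libraries. Over the same days the neural gene Tubb3 fell from 168 ± 0.101 to 58.8 ± 3.71 CPM, and the endothelial gene Tek rose from 65.3 ± 1.31 to 101 ± 0.205 CPM (SD, n = 2). The 5 macrophage markers summed to 56.0 to 80.5 CPM across all libraries. In bulk samples, fewer cells of a type and less RNA per cell cannot be told apart, and the part of these cell types in the changes was not tested.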

How the data were processed

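Days 2, 4, 6 and 8 of doxycycline in 4F2A MEFs, with 2 libraries each, were compared. Per the labels, TRIzol served for RNA extraction and a BGISEQ-500 for sequencing. Per the submitters' processing notes, Trimmomatic 0.39, featureCounts and build mm10 were used. Aligner, annotation, strand setting and treatment of shared reads were not given in the sources used here, so nothing is said of them. The authors deposited CPM. Their table is called TPM, but all libraries sum to the same total and values step in hundredths of a read whatever the length of the gene. Of values above 0, 52.8% to 54.3% were whole reads, and only 5 of the 35 genes were whole in all 8 libraries, so no count test was run. Counting error allows 3 reads (0.149 to 0.155 CPM) where a gene is at 0. A name was found for 32029 identifiers and not for 79, and 0 columns belonged to no sample.

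The 15358 genes that reached 1 CPM in 2 or more libraries were fitted on the scale of log2(CPM + 1). The fit used limma 3.58.1 (R 4.3.3) with an intensity trend and 1 coefficient for each day, and had 4 residual degrees of freedom. Tests were two-sided. A change was called where the p adjusted for all 15358 genes (Benjamini-Hochberg) was under 0.05. A second fit used each gene minus Myc (15357 genes). Such log2 changes understate the folds of low genes, and ratios are of mean CPM. The fit was tested on simulated data. Tables and figures used Python 3.11.15, numpy 2.4.6, pandas 2.3.3 and matplotlib 3.10.9.

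The members, role groups and lists were chosen with earlier results of these data known, and they are no independent evidence. Given in every library were Myc, the member of each role with the largest change in D4 or D8 against D2, and members called against most of their role. From each list came up to 3 called genes with the largest change in D8 against D2 and 2 in D4 against D2, of which some are printed. Polr1b, Cad, Ndrg2, Cdkn2b, Mxi1, Mga, Mnt and Max fall outside this rule and were chosen after their values were seen. Alternatives were a pseudocount of 0.1 CPM, no filter, median-of-ratios scaling, quantile normalization, only the days compared, no trend, a replicate block, and leaving out each library.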

Additional observations from a re-analysis of the deposited data

How the results depend on the processing

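With all 8 libraries, 40.9% of all tested genes were higher and 21.7% lower in D4 against D2. In D8 against D2 these shares were 47.3% and 23.1%. Counts of the 35 genes in D4 and D8 against D2 kept their direction under every alternative. Leaving out each library gave 2 to 4 higher and 16 to 22 lower in D4 against D2, and 3 higher and 18 to 23 lower in D8 against D2. The change of Myc in D8 against D2 lay between 0.83 and 0.90. The middle and late steps, with changes near the replicate spread, depended on the processing, and the cause was not tested. With all 8 libraries, 25.2% of all tested genes were higher and 12.6% lower in D6 against D4. These shares were 4.72% and 4.39% in D8 against D6, and 30.7% and 18.3% in D8 against D4. Of the 35 genes, leaving out each library gave 3 to 8 higher and 1 to 4 lower in D6 against D4, 0 to 1 higher and 0 to 6 lower in D8 against D6, and 1 to 7 higher and 3 to 6 lower in D8 against D4. Of the 35, 4 lay below Myc in D8 against D6 (beside 4.49% of all genes), or 1 to 9 without a library, 8 with only the days compared and 0 without a trend. Over all genes, D8 against D6 gave 232 to 904 higher and 191 to 834 lower without a library, 323 and 210 without a trend, and 210 and 134 without a filter.

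Median-of-ratios scaling gave 3 higher and 5 lower of the 35 in D6 against D4, beside 17.7% and 18.7% of all tested genes. In D8 against D4 it gave 0 higher and 11 lower, beside 23.0% and 23.8%. In D8 against D2 it turned Wdr43 to -0.15, Heatr1 to -0.13 and Gnl3 to -0.16. Quantile normalization gave 1 of the 35 higher (beside 28.7% of all tested genes) and 0 above Myc in D4 against D2. Over all genes it gave 2942 lower in D6 against D4, and 4819 higher and 5876 lower in D8 against D2. It turned Ncl to 0.10, Coil to -0.13, Cdkn1a to 0.0033 and Ccng1 to 0.065 in D8 against D2, and Mdm2 to 0.025 and Ccng1 to 0.19 in D4 against D2. With only the days compared, 5 of the 35 were higher in D6 against D4 and 4 in D8 against D4. Without a trend these were 4 and 3, and 0 were lower in D8 against D6. Without a filter 4 were higher in D8 against D4 and 0 lower in D8 against D6.

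The replicate numbers did not pair the libraries: correlations of same-numbered libraries' deviations between days ran from -0.102 (D4 and D6) to 0.207 (D4 and D8). With the replicate number as a block, 4 of the 35 genes were higher and 21 lower in D4 against D2, and 3 and 22 in D8 against D2. No call of the 35 genes or of Myc was lost. Without the block, 40.9% of all tested genes were higher and 21.7% lower in D4 against D2, and 47.3% and 23.1% in D8 against D2.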
